A study of Mus musculus with 28 samples.

Results

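Genes of epithelial chloride transport were followed across clonal lines of the same mouse kidney cell line. The 10 genes, Cftr, Ano1, Ano6, Slc12a2, Slc9a3r1, Clcn2, Clcn3, Clcn5, Slc26a6 and Lrrc8a, were taken by symbol from 45706 genes listed. They were chosen by their role in chloride secretion and by the TPM of Cftr, which was known to be low in subclone 4. All 10 had TPM (a level scaled by transcript length and by the total of the library) above 0 in all 28 libraries, so none was lost to a filter. The cells were mIMCD-3, an SV40-immortalised mouse line of inner medullary collecting duct epithelium. Polyclonal WT cells, monoclonal WT5, derived from 1 sorted cell, and 5 subclones, each derived from 1 cell sorted out of WT5, gave 4 libraries each, and every group was unedited and untreated, with RNA taken 4 days after full confluency. WT5 and each subclone stand for 1 clone, the 4 libraries are biological replicates in the study's methods and technical ones in a figure legend, and p-values therefore measure the spread between libraries, which may be technical. Polyclonal cells were sequenced as short single-end reads and WT5 as longer paired-end reads at another time, so sequencing batch and line cannot be told apart between them. WT5 and the subclones come from different tables, so where all subclones depart from WT5 alike, line and table cannot be told apart.

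CFTR is a chloride channel of the apical membrane that opens after phosphorylation by the cAMP-dependent kinase, and in collecting duct epithelium and in kidney cysts it lets chloride, and with it fluid, leave the cell into the lumen. Chloride is loaded into the cell across the basolateral membrane by NKCC1, the product of Slc12a2, which draws on the sodium gradient of the sodium-potassium pump. Calcium-activated channels of the anoctamin family, volume-regulated LRRC8 channels, CLC proteins and anion exchangers of the SLC26 family provide other routes for chloride.

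Depth is unknown, since TPM keep no read number, and no counting error can be given. Genes with TPM above 0 numbered 16270 to 17004 per library in WT5 and the subclones and 18681 to 19272 in polyclonal cells. Libraries of a group correlated with r of 0.986 to 0.993 (log2 scale, 13272 genes, which are not independent replicates). The collecting duct label was checked against its markers. The collecting duct epithelium markers Cdh1, Epcam, Krt8, Krt18, Pax2, Pax8 and Cdh16 had means of 26.5 TPM or more in every group, whereas Gata3 had 4.08 TPM in polyclonal cells and at most 0.158 TPM as the mean of any other group. Aqp2, which defines principal cells, and Foxi1, which defines intercalated cells, were at 0 in all libraries. Of the other intercalated cell markers, Atp6v1b1 had 1.325 TPM in polyclonal cells and at most 0.035 TPM as the mean of any other group. Slc26a4 had group means of up to 0.625 TPM, in subclone 4. Other markers moved between lines. The principal cell marker Slc14a2, a urea transporter, had 4.99 TPM in subclone 4, 2.4 TPM in subclone 5 and at most 0.293 TPM elsewhere, and the 6 principal cell markers summed to 5.49 to 7.26 TPM in subclone 4, 10.8 to 12.9 TPM in polyclonal cells and 0.63 to 4.55 TPM in the other lines. Umod of the thick ascending limb had 0.0675 TPM in polyclonal cells and 11.6 TPM in subclone 5, with Slc12a1 of the same list at most at 0.01 TPM, and Lrp2 of the proximal tubule had 1.51 to 8.21 TPM as group means, with Slc34a1 at 0. Their part in the results was not tested. Avpr2, the vasopressin V2 receptor upstream of cAMP and CFTR, had 10.6 TPM in polyclonal cells and at most 0.2 TPM in the other groups. The summed level of the 4 fibroblast markers was 0.06 to 2.07 TPM and that of the 2 endothelial markers 0 to 0.29 TPM over all libraries. The 2 leukocyte markers, mostly Cd68, summed to 1.52 to 4.68 TPM over all libraries and to 3.16 to 4.68 TPM in subclone 4.

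Cftr (ENSMUSG00000041301, chromosome 6 from 18170687 to 18322768, plus strand, GRCm38) had the widest range of group means as a fold, which rests on subclone 4, where the level is near the rounding of the files. Polyclonal libraries had 0.34, 0.24, 0.25 and 0.27 TPM (0.275 ± 0.0451, SD, n = 4, as for all means below). WT5 libraries had 1.46, 1.56, 1.83 and 1.59 TPM (1.61 ± 0.157). Every WT5 library was above every polyclonal library, by 5.85-fold on the means, as 72.3% of all genes did not overlap between these lines. Subclone 1 had 3.04, 2.59, 2.51 and 2.98 TPM (2.78 ± 0.269). Subclone 2 had 2.15, 1.8, 1.96 and 2.18 TPM (2.02 ± 0.177). Subclone 3 had 2.55, 1.73, 2.29 and 2.37 TPM (2.24 ± 0.354). These 3 subclones lay above WT5 on the means, and subclones 2 and 3 overlapped with it in single libraries. Subclone 5 had 2.41, 3.16, 3.36 and 3.76 TPM (3.17 ± 0.566), the highest mean of all groups. Subclone 4 had 0.04, 0.08, 0.07 and 0.02 TPM (0.0525 ± 0.0275). All 4 of its libraries were below the lowest polyclonal library (69.3% of all genes did not overlap between these lines) and at most 0.08 TPM, where the files round to 0.01 TPM. The mean of subclone 4 was 30.7-fold below WT5 and 48.6-fold below the 16 libraries of subclones 1, 2, 3 and 5. This fall was known when the genes were chosen and is given as a description with no p. In bulk RNA, fewer cells with a transcript and less of it per cell cannot be told apart.

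**Figure D1:**
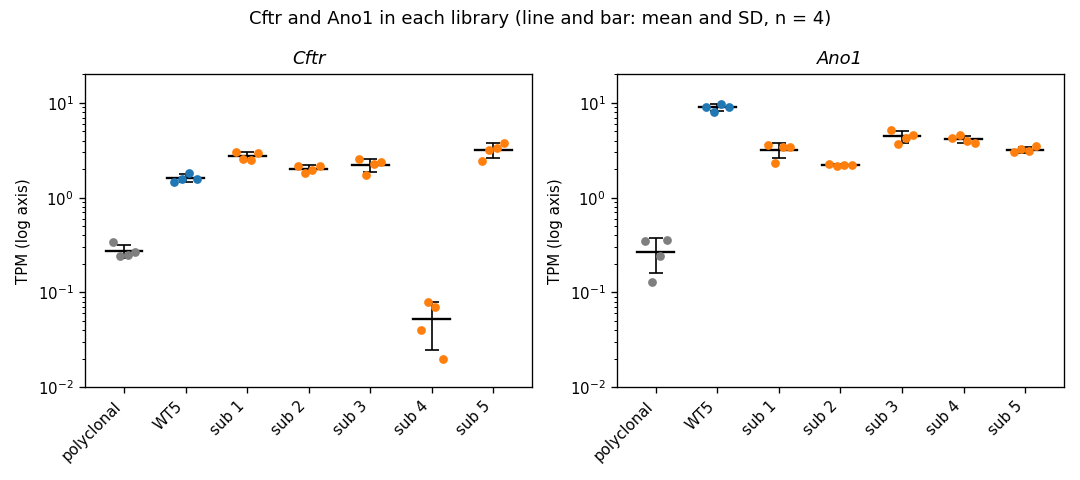
TPM of Cftr (left) and Ano1 (right) on a log axis in each of the 28 libraries, by line, with the mean (line) and SD (bar) of 4 libraries. Cftr was between 0.02 and 0.08 TPM in subclone 4 and between 1.73 and 3.76 TPM in the other subclones, and Ano1 was highest in WT5 and lowest in polyclonal cells.

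In order of level Cftr ran from subclone 5 over subclones 1, 3 and 2 to WT5, polyclonal cells and subclone 4. Neighbours in this order overlapped in their libraries down to WT5, and the steps from WT5 to polyclonal cells (5.85-fold) and from polyclonal cells to subclone 4 (5.24-fold) did not. Apart from subclone 4, Cftr had means from 2.02 to 3.17 TPM in subclones 1, 2, 3 and 5. No p is given for this range, since the genes were chosen by the level of Cftr in subclone 4, which was then left out. Cftr was higher in WT5 than in polyclonal cells. On z-scores of log2(TPM), taken here within each library, the difference was 0.741 (standard error 0.0346, adjusted p = 7.86e-07, limma). It was called by the p-value and not by the second threshold of the study, a z-score difference above 1, which corresponds to 8.56-fold between these groups.

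The upstream windows of Cftr and Ano1, the members whose level differed most between lines, are shown with that of Slc9a3r1, the member with the highest level in every group, to let the starts of low and high genes be compared. Each run is the 250 bases before the RefSeq start (GRCm38.p6) of the gene on its own strand, 5′ to 3′, with matches on either strand in capitals, overlapping matches included. The letters searched were the CCAAT box (CCAAT), the GC box (GGGCGG), the core of the cAMP response element (TGACG) and the TATA box (TATAAA).
Cftr: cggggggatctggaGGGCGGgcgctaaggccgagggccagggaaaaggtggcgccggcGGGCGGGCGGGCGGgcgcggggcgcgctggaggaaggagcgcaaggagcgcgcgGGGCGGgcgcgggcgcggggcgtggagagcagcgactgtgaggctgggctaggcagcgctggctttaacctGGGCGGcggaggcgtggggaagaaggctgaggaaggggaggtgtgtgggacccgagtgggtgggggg
Ano1: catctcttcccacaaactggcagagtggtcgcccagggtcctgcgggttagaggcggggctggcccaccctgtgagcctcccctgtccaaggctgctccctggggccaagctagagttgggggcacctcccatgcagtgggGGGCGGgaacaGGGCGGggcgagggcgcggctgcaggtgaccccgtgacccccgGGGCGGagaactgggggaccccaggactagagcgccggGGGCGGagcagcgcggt
Slc9a3r1: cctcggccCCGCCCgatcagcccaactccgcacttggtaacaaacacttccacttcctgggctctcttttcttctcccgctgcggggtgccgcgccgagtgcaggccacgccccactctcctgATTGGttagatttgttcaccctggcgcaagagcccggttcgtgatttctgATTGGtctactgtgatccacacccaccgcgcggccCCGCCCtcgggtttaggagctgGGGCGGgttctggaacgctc
The Cftr window lies at chr6:18170437-18170686 on the plus strand, the Ano1 window at chr7:144738574-144738823 on the minus strand and the Slc9a3r1 window at chr11:115163091-115163340 on the plus strand. The Ano1 window falls inside the span that GENCODE gives this gene, 144588549 to 144751974 on chromosome 7. The Cftr window holds 6 matches to the GC box, the letters bound by Sp1-type factors, and 30 CG dinucleotides, and 94.1% of 32851 windows of the same length in 27025 genes hold fewer CG. The Ano1 window holds 4 such matches and 16 CG (74.6% of windows hold fewer), and the Slc9a3r1 window 3, with 2 matches to the CCAAT box and 20 CG (82.1% hold fewer). None of the 3 windows holds the cAMP response core or the TATA box. Of all windows, 32.7% hold the GC box, 33.8% the CCAAT box, 17.8% the cAMP response core and 12.4% the TATA box. The match to these letters is a description of the windows and was not tested against expression.

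Other genes of chromosome 6 were also lower in subclone 4. Against the other 4 subclones, within the same table and fit, 569 chromosome 6 genes other than Cftr with a mean of at least 1 TPM were compared. Their median log2 difference was -0.365 (0.776-fold), and 304 of them (53.4%) were lower at an adjusted p under 0.01 (limma). Of all 14031 genes tested, with no such filter and with chromosome 6 included, 9.77% were lower. Lower was read from the log2 difference in the first count and from the z-score difference in the second. The medians of all other chromosomes lay between -0.0436 (chromosome 18) and 0.0997 (chromosome 5), except for chromosome 12 with 0.375. The difference of Cftr, -5.76, was below that of every other chromosome 6 gene kept, where the next lowest was Hpgds with -1.64. Genes at 0 TPM in any of the 20 subclone libraries, or with a mean under 1 TPM, had been left out. A gene that fell to 0 in subclone 4 is therefore not seen in this range. The lower level was not spread evenly. The 25 Mb from the start of the chromosome, which hold Cftr, had a median of -0.523, the next stretches of 25 Mb had -0.0153 and 0.0869, both following stretches had -0.542 and -0.518, and the last had -0.0416. The part of this stretch-wide difference in the level of Cftr was not tested.

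**Figure D2:**
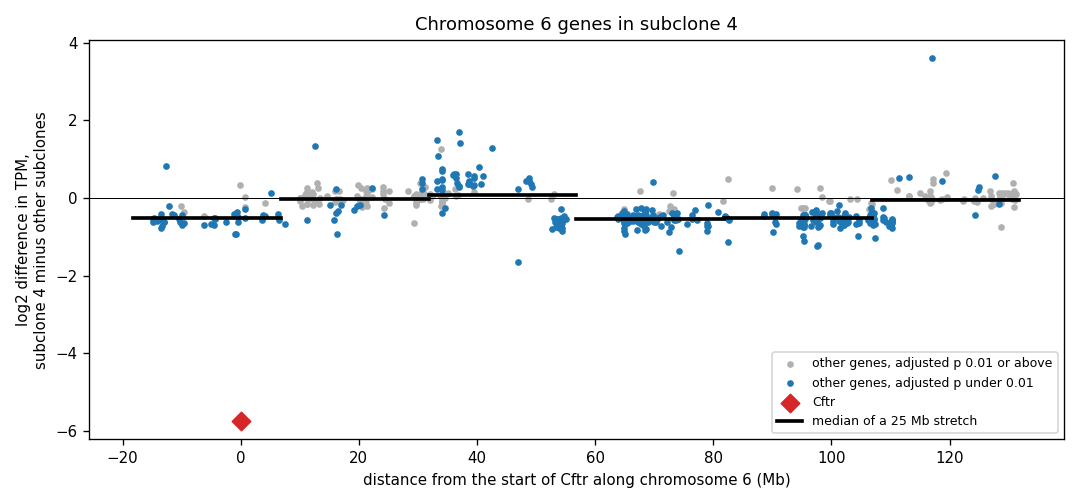
Log2 difference in TPM between subclone 4 and the mean of the other subclones for chromosome 6 genes tested with a mean of at least 1 TPM. The horizontal axis is the distance of each start from that of Cftr (Mb), with Cftr as a diamond and the median of each 25 Mb stretch as a line. Cftr lies at -5.76 and the medians fall into stretches near -0.5 and stretches near 0.

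Neighbours were the 5 nearest protein-coding genes on each side of Cftr, which are not the 10 nearest by distance. Of the 6 expressed genes among them, 5 were lower in subclone 4 than in the other subclones, and the nearest of the 6, Wnt2, was not. Capza2, which encodes an actin capping subunit 504 kb before Cftr, had 92.6 ± 2.93 TPM in subclone 4 and a mean of 143 TPM in the other subclones (z-score difference -0.202, adjusted p = 3.06e-08). Lsm8, an RNA-binding protein of the U6 particle 526 kb after it, had 115 ± 3.73 against 166 TPM (z-score difference -0.166, adjusted p = 5.78e-08). Met, the HGF receptor, St7 and Tspan12 were lower as well (z-score differences -0.119, -0.167 and -0.183, all at an adjusted p of 2.82e-05 or less). Tspan12 in subclone 4 was near WT5 (47.0 and 49.0 TPM), and the other subclones had means of 61.5 to 75.3 TPM. Met had 56.1 to 63.6 TPM in subclone 4, and the lowest library of WT5 and the other subclones had 54.98 TPM. Wnt2, a secreted Wnt ligand 140 kb before Cftr, was not lower in subclone 4, with 3.65 ± 0.171 TPM against a mean of 3.07 TPM (z-score difference 0.0957, adjusted p = 0.0271). It had 0.005 ± 0.01 TPM in polyclonal cells and 4.98 ± 0.555 TPM in WT5. Asz1, Cttnbp2, Ankrd7 and Kcnd2 had group means of at most 0.358 TPM in every line. Gm15592, which overlaps Cftr on the other strand, had at most 0.14 TPM in any library.

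Likeness to Cftr was measured as Pearson's r of log2(TPM + 0.1) over the 24 libraries of WT5 and the subclones, for 12642 other genes with at least 1 TPM in 1 group, and is given as a description. The 5 genes most like Cftr were Paip2b (r = 0.968), Tmf1 (0.958), Ptcd3 (0.958), Rtl8b (0.951) and Mob1a (0.947), of which all but Rtl8b, on chromosome X, lie on chromosome 6. Paip2b, a regulator of poly(A)-binding protein, had 31.9 to 38.8 TPM in subclone 4 and 49.9 to 60 TPM in the other 20 libraries. Rtl8b, a gene derived from a retrotransposon, had 1.2 to 2.25 TPM in subclone 4 and 8.28 to 14.5 TPM elsewhere. The genes with the lowest r were Dpysl5 (-0.917) and Cdk14 (-0.913), higher in subclone 4 than in the other 20 libraries. The likeness rests on the libraries of subclone 4. Without them, r was 0.754 for Paip2b, 0.207 for Tmf1, 0.132 for Ptcd3, 0.005 for Rtl8b and 0.404 for Mob1a. Over the 24 libraries the other members had r from -0.149 (Ano1) to 0.470 (Clcn2). Without subclone 4 they had r from -0.461 (Ano1) to 0.480 (Slc26a6), and the r of Slc26a6 was then above that of Tmf1, Ptcd3, Rtl8b and Mob1a. Among these lines WT5 had the lowest means of Cftr and Slc26a6 and the highest of Ano1, where line and table cannot be told apart. Its part in these r was not tested, and libraries of a line are not independent points.

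Ano1 (ENSMUSG00000031075, chromosome 7, minus strand) encodes TMEM16A, the calcium-activated chloride channel of secretory epithelia. Polyclonal libraries had 0.35, 0.13, 0.24 and 0.36 TPM (0.270 ± 0.108). WT5 libraries had 9.16, 7.95, 9.76 and 9.02 TPM (8.97 ± 0.753). WT5 was above polyclonal cells by 33.2-fold, the largest difference between these lines among the members, and its z-scores differed by 1.58 (standard error 0.0940, adjusted p = 2.67e-06, limma). Subclone 1 had 3.57, 2.34, 3.45 and 3.46 TPM (3.21 ± 0.579), with replicate 2 apart. Subclone 2 had 2.28, 2.15, 2.19 and 2.22 TPM (2.21 ± 0.0548). Subclone 3 had 5.23, 3.65, 4.3 and 4.58 TPM (4.44 ± 0.655). All 12 of these libraries were below the lowest WT5 library and above the highest polyclonal one, as 69.5%, 67.3% and 60.8% of all genes did not overlap between polyclonal cells and subclones 1 to 3. Subclone 4 had 4.31, 4.57, 4 and 3.75 TPM (4.16 ± 0.358). Subclone 5 had 3.01, 3.24, 3.08 and 3.47 TPM (3.20 ± 0.204). All 5 subclones thus had less Ano1 than WT5, from 2.02-fold (subclone 3) to 4.06-fold (subclone 2), and their libraries did not overlap with those of WT5, as was so for 41.3%, 38.7%, 36.6%, 49.2% and 37.7% of all genes in subclones 1 to 5. Subclones 4 and 5 were also above polyclonal cells without overlap (69.3% and 61.3% of all genes).

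The z-score differences of Ano1 from WT5 were -0.497, -0.670, -0.339, -0.378 and -0.479 for subclones 1 to 5 (standard errors 0.0211 to 0.0502, adjusted p between 6.81e-06 and 0.000367, limma). None exceeded 1. All subclones shared this direction, so line and table cannot be told apart. Within the table of the subclones, Ano1 differed among the 5 (F test, adjusted p = 1.44e-05) and among the 4 without subclone 4 (adjusted p = 0.000205). The F test without subclone 4 was added after the data were seen, and 11.7% of all 14031 genes tested passed it. Subclone 2 was lower than the mean of the others (z-score difference -0.241, standard error 0.0286, adjusted p = 2.03e-05) and subclone 3 was higher (0.163, adjusted p = 0.00108). Subclone 4, the one with low Cftr, was higher (0.116, adjusted p = 0.00555), a call that was lost without its replicate 1, 2 or 3 (adjusted p from 0.0145 to 0.0299). By the unequal-variance test both higher calls missed the threshold (adjusted p = 0.0116 for subclone 3 and 0.0400 for subclone 4). In order of level, subclones 3 and 4 overlapped, as did subclones 1 and 5, and the steps from subclone 4 to subclone 1 and from subclone 5 to subclone 2 did not (24.8% and 14.4% of all genes do not overlap between these subclones).

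Ano6 (chromosome 15) encodes TMEM16F, a calcium-activated scramblase of membrane lipids that also conducts ions. It had 32.1 ± 1.69 TPM in polyclonal cells and 46.9 ± 1.34 TPM in WT5 (z-score difference 0.110, standard error 0.0149, adjusted p = 0.000269). Polyclonal replicate 2 was the lowest library with 29.55 TPM, and the lowest WT5 library had 45.91 TPM. The subclones had means from 38.9 ± 3.34 TPM (subclone 4) to 42.8 ± 2.71 TPM (subclone 2). They overlapped with each other, and none differed from WT5 at an adjusted p under 0.01, although subclone 4 did on log2 values without z-scores (-0.27, adjusted p = 0.00941). A130051J06Rik, an antisense gene over Ano6, had at most 0.94 TPM in any library.

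Slc12a2 (ENSMUSG00000024597, chromosome 18) encodes NKCC1, the loader of chloride. Polyclonal libraries had 30.98, 27.56, 31.54 and 31.67 TPM (30.4 ± 1.94) and WT5 libraries 30.44, 30.92, 31.65 and 31.11 TPM (31.0 ± 0.500). The lines overlapped, and the z-score difference of -0.0587 did not pass (adjusted p = 0.0107), with the opposite sign on the log2 scale (0.03). It passed without polyclonal replicate 2 (-0.0715, adjusted p = 0.00125) and over genes with a mean of at least 1 TPM (-0.0831, adjusted p = 0.00615). Genes of chromosome 18 as a whole had a median log2 difference of 0.638 between these lines. Subclone 1 had 39.73, 36.44, 34.43 and 39.07 TPM (37.4 ± 2.45). Subclone 2 had 44.69, 35.72, 39.01 and 41.86 TPM (40.3 ± 3.84). Subclone 3 had 42.63, 34.36, 40.86 and 40.4 TPM (39.6 ± 3.60). These libraries were all above the highest WT5 library, where 41.3%, 38.7% and 36.6% of all genes do not overlap. Subclone 4 had 33.09, 37.53, 37.26 and 37.37 TPM (36.3 ± 2.15), also above WT5 (49.2% of all genes do not overlap). Subclone 5 had 28.81, 33, 33.84 and 36.1 TPM (32.9 ± 3.05) and overlapped with WT5.

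Slc12a2 was higher than WT5 in all 5 subclones by the z-score, with differences of 0.103, 0.148, 0.148, 0.0991 and 0.0631 in subclones 1 to 5 (adjusted p = 0.00098, 0.000437, 0.000621, 0.000908 and 0.00991, limma). The call in subclone 5 ended without any 1 of the WT5 libraries or its own replicate 2, 3 or 4 (adjusted p 0.0133 to 0.0339) and on log2 values without z-scores (adjusted p = 0.44). By the unequal-variance test none of the 5 calls passed (adjusted p 0.0117 to 0.0301). Within the table of the subclones, Slc12a2 passed the F test (adjusted p = 0.00514), with subclone 5 lower than the mean of the others (z-score difference -0.0603, standard error 0.0143, adjusted p = 0.0051, and 0.0143 to 0.0260 without its replicate 1, 2 or 3). The F test missed the threshold without subclone 4 (adjusted p = 0.0101), without z-scores (0.0880), by the unequal-variance test (0.0338) and without replicate 1 or 4 of subclone 2, 1 or 3 of subclone 3, or 1, 2 or 3 of subclone 5 (0.01 to 0.0165).

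Slc26a6 (ENSMUSG00000023259, chromosome 9) encodes an apical exchanger of chloride for bicarbonate and oxalate that works beside CFTR in secretory epithelia. Polyclonal libraries had 4.54, 4.14, 3.81 and 4.07 TPM (4.14 ± 0.302). WT5 libraries had 3.37, 2.91, 2.65 and 2.98 TPM (2.98 ± 0.298). WT5 was thus lower than polyclonal cells without overlap, as for 72.3% of all genes (z-score difference -0.232, standard error 0.0321, adjusted p = 0.000302, and 0.0349 with every gene above 0 anywhere kept at a pseudocount of 0.1). Subclone 1 had 3.91, 4.13, 4.78 and 3.05 TPM (3.97 ± 0.715). Subclone 2 had 5.59, 5.17, 5.13 and 5.24 TPM (5.28 ± 0.210). Subclone 3 had 3.59, 4.63, 6 and 5.19 TPM (4.85 ± 1.01). Of these, only subclone 1 had a library, replicate 4, below the highest WT5 library. Between WT5 and subclones 2 and 3, 38.7% and 36.6% of all genes did not overlap. Subclone 4 had 3.81, 5.52, 6.32 and 5.78 TPM (5.36 ± 1.08). Subclone 5 had 5.25, 4.34, 7.23 and 7.1 TPM (5.98 ± 1.42).

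The means of the subclones were 1.33- to 2.01-fold above WT5. The difference passed in subclone 2 (z-score difference 0.271, standard error 0.0271, adjusted p = 0.000355), subclone 4 (0.259, standard error 0.0537, adjusted p = 0.00513) and subclone 5 (0.333, standard error 0.0614, adjusted p = 0.00492). It did not pass in subclone 1 (0.125, adjusted p = 0.103) or subclone 3 (0.217, adjusted p = 0.0319, and 0.00449 without its replicate 1). The calls in subclones 4 and 5 were lost without WT5 replicate 2, 3 or 4, without replicate 2, 3 or 4 of subclone 4, or without replicate 1, 3 or 4 of subclone 5 (adjusted p 0.0118 to 0.0167). By the unequal-variance test none of the 3 calls passed (adjusted p = 0.0116, 0.0238 and 0.0326). Subclones did not differ from each other in Slc26a6 by the F test (adjusted p = 0.177).

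Slc9a3r1 (ENSMUSG00000020733, chromosome 11) encodes NHERF1, a PDZ scaffold that holds CFTR at the apical membrane and ties it to ezrin. Polyclonal libraries had 115.66, 130.73, 130.3 and 116.72 TPM (123 ± 8.28). WT5 libraries had 183.67, 185.72, 181.64 and 186.63 TPM (184 ± 2.23). WT5 was 1.5-fold above polyclonal cells (z-score difference 0.127, standard error 0.0139, adjusted p = 7.99e-05). Subclone 1 had 157.08 to 175.36 TPM, subclone 2 131.44 to 161.38 TPM, subclone 3 128.68 to 145.51 TPM, subclone 4 135.7 to 145.73 TPM and subclone 5 128.5 to 157.22 TPM. All 20 subclone libraries were below the lowest WT5 library, where 36.6% to 49.2% of all genes do not overlap. Against WT5 the difference passed in subclone 2 (z-score difference -0.0611, adjusted p = 0.00759), subclone 3 (-0.0783, adjusted p = 0.00529) and subclone 4 (-0.0746, adjusted p = 0.000751), and not in subclone 1 (-0.0191, adjusted p = 0.238) or subclone 5 (-0.0525, adjusted p = 0.0194). The calls in subclones 2 and 3 were lost without any 1 of the WT5 libraries (adjusted p 0.0153 to 0.0254), without replicate 2, 3 or 4 of subclone 2 (0.0107 to 0.0200) or without replicate 3 of subclone 3 (0.0173), and that in subclone 2 also by the unequal-variance test (0.0217). The F test among subclones gave an adjusted p of 0.0155, and passed without subclone 5 replicate 1 (0.00998), with a pseudocount of 0.1 or 1 (0.00872 and 0.00544), over genes with a mean of at least 1 TPM (0.00646) and with every gene above 0 anywhere kept (0.00566).

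Of the CLC members, Clcn3 and Clcn5 differed between WT5 and polyclonal cells. Clcn3 (chromosome 8), a chloride-proton exchanger of endosomes, had 58.1 ± 4.89 TPM in polyclonal cells and 37.1 ± 1.41 TPM in WT5 (z-score difference -0.274, standard error 0.0229, adjusted p = 1.72e-05). No WT5 library (35.93 to 39.06 TPM) reached the lowest polyclonal library (52.39 TPM). Clcn5 (chromosome X), the endosomal exchanger that is defective in Dent disease, had 4.93 ± 0.423 TPM in polyclonal cells and 8.76 ± 0.786 TPM in WT5 (z-score difference 0.193, standard error 0.0255, adjusted p = 0.000231). Its libraries did not overlap either (4.65 to 5.55 and 7.66 to 9.46 TPM), as for 72.3% of all genes, and genes of chromosome X as a whole had a median log2 difference of -0.0807 against 0.83 for Clcn5. In the subclones Clcn3 had means of 31.9 to 35.4 TPM and Clcn5 of 7.98 to 9.16 TPM. Neither passed against WT5 or in the F test (adjusted p = 0.219 and 0.115).

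Clcn2 (chromosome 16), a plasma membrane channel that opens on hyperpolarisation, had 6.30 ± 0.795 TPM in polyclonal cells, 8.04 ± 0.687 TPM in WT5 and means of 6.29 to 8.37 TPM in the subclones. It passed in no comparison here, but between WT5 and polyclonal cells it did with every gene above 0 anywhere kept at a pseudocount of 0.1 (adjusted p = 0.00603). Its lowest group was subclone 4, with 7.44, 5.56, 5.25 and 6.89 TPM. That was a z-score difference of -0.127 from WT5 (adjusted p = 0.0384) and of -0.121 from the other subclones (adjusted p = 0.0434). Its exons overlap Fam131a and Polr2h on the other strand, which had 9.57 to 14.6 and 65.3 to 87.9 TPM as group means, and whether the counting used strand is not given in the sources used here. Lrrc8a (chromosome 2), the subunit that every volume-regulated anion channel needs, had 10.9 ± 0.666 TPM in polyclonal cells and 13.6 ± 0.927 TPM in WT5. The z-score difference of 0.0310 did not pass (adjusted p = 0.235), whereas the log2 difference of 0.32 did (adjusted p = 0.00289), beside a chromosome 2 median of 0.658. All 5 subclones had lower means than WT5, at most 12.3 TPM, so line and table cannot be told apart. Only subclone 4, at 10.5 ± 0.713 TPM, passed against WT5 (z-score difference -0.119, standard error 0.0217, adjusted p = 0.00278), and not with the replicate block (0.0132). Subclones 3 and 5 did not pass (-0.0915 and -0.0897, adjusted p = 0.0166 and 0.0165). They passed with all WT5 and subclone libraries in 1 fit (0.00157 and 0.00197) and without WT5 replicate 2 (0.00981 and 0.00916). Against the other subclones, subclone 4 did not pass (adjusted p = 0.0388). Gm28035, which shares 66% of the 50-base stretches of the Lrrc8a transcript, had at most 0.63 TPM in any library, so reads of the pair may have been divided between them.

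**Figure D3:**
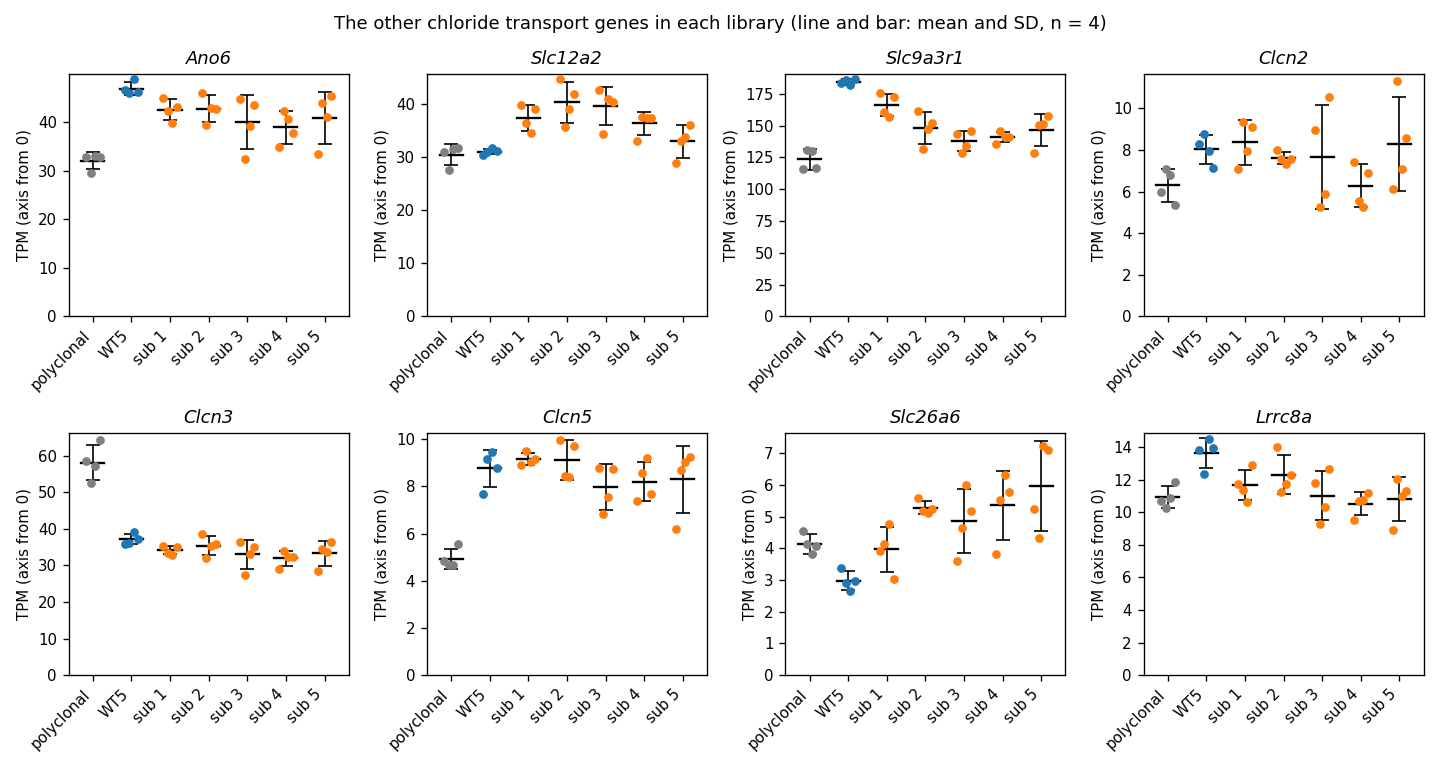
TPM of the other 8 members in each library on axes that start at 0, with the mean (line) and SD (bar) of 4 libraries. Clcn3 is highest in polyclonal cells, Clcn5 and Slc9a3r1 are lowest there, and Slc26a6 is lowest in WT5.

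Between WT5 and polyclonal cells, 7 of the 10 members passed at an adjusted p under 0.01, 5 higher and 2 lower in WT5. This was so for 65.5% of all 13723 genes tested, 34.5% higher and 30.9% lower. With the z-score difference above 1 as well, 1 member passed (Ano1), beside 5.43% of all genes. The median size of the z-score difference was 0.160 over the members and 0.168 over all genes. Without z-scores the median of all genes was shifted by 0.24 on the log2 scale towards WT5, and the z-scores bring this median to 0.00991. The log2 differences of Ano6, Slc9a3r1 and Lrrc8a, not corrected for this shift, were 0.55, 0.58 and 0.32. Those of Clcn3 and Slc26a6 were -0.64 and -0.48.

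Against WT5, of the 9 members other than Cftr, 2 passed at an adjusted p under 0.01 in subclone 1 and 4, 3, 5 and 3 in subclones 2 to 5. All genes passed at 26.3%, 26%, 19.5%, 37.3% and 21.9%. These 5 comparisons share the WT5 libraries. None of these 9 passed with a z-score difference above 1 in any of them, where 0.152%, 0.144%, 0.173%, 0.202% and 0.173% of all genes did. Against the mean of the other subclones, 4 of 45 comparisons of these 9 members passed (Ano1 in subclones 2, 3 and 4, and Slc12a2 in subclone 5), where 4.36%, 5.95%, 4.85%, 18.4% and 14.5% of all genes passed in subclones 1 to 5. By the F test, Ano1 and Slc12a2 differed among the subclones out of these 9, beside 24.6% of all 14031 genes.

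**Figure D4:**
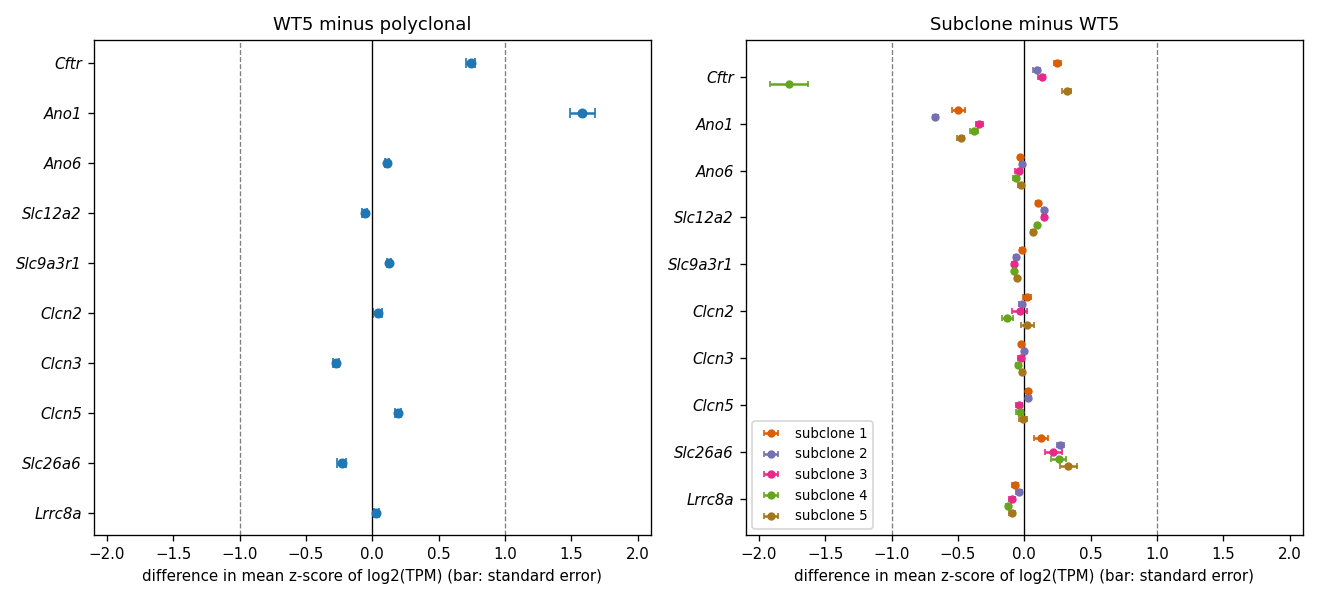
Difference in mean z-score of log2(TPM) for each member, between WT5 and polyclonal cells (left) and between each subclone and WT5 (right), with standard errors. Dashed lines mark differences of 1 in size, Ano1 lies at 1.58 on the left and Cftr in subclone 4, the value the genes were chosen by, lies at -1.77 on the right.

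Related genes were counted in lists by role. Of 15 anion exchangers and bicarbonate transporters outside the members, 10 could be tested between WT5 and polyclonal cells, and 5 were higher and 1 lower in WT5. Slc4a4, the sodium-bicarbonate cotransporter NBCe1, rose from 0.110 ± 0.0271 to 3.53 ± 0.0978 TPM (z-score difference 1.54, adjusted p = 4.15e-07). Slc4a11, of the same Slc4 family, rose from 2.17 ± 0.294 to 59.1 ± 1.24 TPM (1.47, adjusted p = 2.35e-08). Both lie past the z-score threshold, as did no other gene of the list. Of 10 scaffolds of the CFTR complex and ezrin-family proteins, 8 could be tested, and 3 were higher and 4 lower. Shank2, a PDZ scaffold that binds CFTR in competition with NHERF1, rose from 0.0925 ± 0.0340 to 8.49 ± 0.193 TPM (z-score difference 2.05, adjusted p = 5.02e-07). Of 11 genes of basolateral drive (potassium channels and the sodium-potassium pump), 6 could be tested, and 1 was higher and 5 lower. Fxyd5, a regulator of the pump, rose from 0.0975 ± 0.0250 to 4.59 ± 1.73 TPM (z-score difference 1.70, adjusted p = 3.31e-06), and Kcnq1, the potassium channel that recycles potassium in secretory cells, fell from 0.807 ± 0.0585 to 0.115 ± 0.0265 TPM (-1, adjusted p = 2.1e-06).

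The other lists had no gene past the z-score threshold. Among 12 transcription factors known to act on CFTR, 7 could be tested, with 3 higher and 3 lower in WT5. Foxa1 fell from 31.4 ± 2.87 to 6.29 ± 0.414 TPM (z-score difference -0.820, adjusted p = 1.64e-07) and Ehf from 155 ± 10 to 39.1 ± 1.43 TPM (-0.706, adjusted p = 6e-08), while Cebpd rose from 5.53 ± 0.809 to 20.5 ± 2.48 TPM (0.538, adjusted p = 7.69e-06). Of 21 genes of CFTR folding and traffic, all could be tested, with 5 higher and 7 lower. Stx1a, Sgk1 and Myo5b had the largest differences (0.749, 0.487 and 0.452). Of 17 other anion channels, 13 could be tested, with 6 higher and 1 lower, and the largest differences were those of Slco2a1 (0.933), the core of the maxi-anion channel, Lrrc8c (0.841), a partner of LRRC8A, and Clic4 (0.325). Of 14 cation-chloride cotransporters and WNK-pathway genes, 10 could be tested, with 5 higher and 1 lower. Stk39, the kinase SPAK that activates NKCC1, rose from 0.233 ± 0.0457 to 1.35 ± 0.246 TPM (0.736, adjusted p = 6.87e-06). Of 8 other CLC genes and partners 5 could be tested (2 higher, 1 lower), and of 8 other anoctamins 3 (1 higher, 1 lower). These counts stand beside 34.5% higher and 30.9% lower over all genes.

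Among the subclones, some of these genes differed more than the members other than Cftr and Ano1. Stk39 had 3.21 ± 0.411, 1.17 ± 0.159, 4.83 ± 0.250, 3.96 ± 0.470 and 5.03 ± 0.568 TPM in subclones 1 to 5. It was lower in subclone 2 than in the others (z-score difference -0.606, adjusted p = 2.39e-10) and higher in subclones 3 and 5 (0.234 and 0.275, adjusted p = 2.1e-05 and 1.63e-06). Slc4a4 was lower in subclone 5 (2.77 ± 0.472 TPM) than in the others, whose means were 6.47 to 9.62 TPM (-0.491, adjusted p = 7.11e-11). Slc26a4, the exchanger pendrin, was highest in subclone 4 with 0.625 ± 0.111 TPM against means of 0.122 to 0.29 TPM (0.532, adjusted p = 1.69e-06). In subclone 4 the transcription factor list had Cebpd higher (23.1 ± 1.74 TPM, 0.265, adjusted p = 3.77e-07), and the folding list had the chaperone Hsp90aa1 and its activator Ahsa1 higher (0.113 and 0.145, adjusted p = 7.18e-07 and 3.35e-07). Against the other subclones, subclone 4 had 3 of 21 folding and traffic genes higher and 1 lower. Of 8 transcription factors tested, 1 was higher and 0 lower. Higher and lower counts were 2 and 3 for exchangers, 1 and 1 for anion channels, and 1 and 0 for basolateral drive. They were 0 and 3 for cotransporters and WNK genes, 0 and 2 for scaffolds and 0 and 1 for anoctamins. No CLC gene passed. Of all genes, 18.4% passed in this comparison. By the F test, 5 of 11 exchangers tested, 5 of 10 cotransporters and WNK genes, 4 of 8 transcription factors, 4 of 12 anion channels, 6 of 21 folding and traffic genes, 3 of 9 scaffolds, 3 of 6 genes of basolateral drive, 2 of 3 anoctamins and 1 of 5 CLC genes differed among the subclones, beside 24.6% of all genes.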

How the data were processed

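RNA-seq of 28 mIMCD-3 libraries was used, 4 for each of 7 lines, grouped by the labels. As deposited by the authors, values are TPM in 2 tables, from RSEM 1.3.1 after alignment to GRCm38 with STAR 2.7.3a and Ensembl annotation; the submitters' notes also name CASAVA 1.8. Tables were joined by gene identifier, and symbols and positions came from GENCODE M21 (GRCm38), which matched 45143 of 45706 identifiers. TPM were used as they stand. TPM keep no depth, and the lowest value above 0 is 0.01.

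Log2(TPM) without a pseudocount was z-scored, here within each library, which the methods do not state, over the genes above 0 TPM in each library compared (13723 for WT5 and polyclonal cells, 13860 for WT5 and the subclones, 14031 for the subclones alone). Two-sided tests used limma 3.58.1 (R 4.3.3) with Benjamini-Hochberg adjustment over all genes, and calls need an adjusted p under 0.01, with or without a z-score difference above 1. All p-values come from these fits unless another test or setting is named. The fit for a pair of groups was tested on simulated data that held large changes only. Smaller differences, the F test and the comparisons of a subclone with the other subclones were not simulated. The methods name an unequal-variance test, used as an alternative beside pseudocounts of 0.1 and 1, filters on mean TPM, no z-scores, a replicate block, 1 fit for all subclones and each library left out. The F test on 4 subclones was added after seeing the data. Replicate numbers were not taken to pair libraries.

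Members and lists were chosen with earlier results of these data known. Named were the members, list genes past both thresholds or else up to 3 with the largest difference at an adjusted p under 0.01, the 5 genes most and 2 least correlated with Cftr, and the 5 protein-coding genes on each side of it. The choice of genes of chromosome 6, Avpr2 and the marker genes printed, and the choice among list genes that differed between subclones, came after their values were seen. Promoter windows came from RefSeq. A marker gene of the lists is not reported here. Python 3.11.15 with numpy 2.4.6, pandas 2.3.3 and matplotlib 3.10.9 was used.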

Additional observations from a re-analysis of the deposited data

Results flagged for a closer look

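In subclone 4, Cftr had a mean of 0.0525 TPM, with every library below WT5, while the means of all other subclones and every library of subclones 1 and 5 were above the WT5 libraries. Between WT5 and subclones 1, 4 and 5, 41.3%, 49.2% and 37.7% of all genes did not overlap. The genes were chosen by the value of Cftr in subclone 4, so it is given as a description with no p. Ano1 differed among the 5 subclones (limma F test, adjusted p = 1.44e-05), with means of 2.21 to 4.44 TPM, and so did Slc12a2 (adjusted p = 0.00514), with means of 32.9 to 40.3 TPM. In 4 of 70 groups of 4 libraries, 1 library stood apart from the other 3 by Dixon's criterion, where chance gives about 1 in 20, or 3.5 groups. These were Ano1 in subclone 1 replicate 2 (2.34 TPM), Ano6 in polyclonal replicate 2 (29.55 TPM), Slc12a2 in polyclonal replicate 2 (27.56 TPM) and Slc12a2 in subclone 4 replicate 1 (33.09 TPM), all lower than the rest of their group.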

How the results depend on the processing

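Counts over the 10 members include Cftr, whose level in subclone 4 chose the genes and which makes every call past both thresholds in the subclones under the main setting, so nothing is read from those counts. Between WT5 and polyclonal cells, 1 member passed both thresholds and 2 on log2 differences above 1 without z-scores. Against WT5, 1 of 50 comparisons passed both thresholds, against 0 with a pseudocount of 1, 0 with every gene above 0 anywhere kept at a pseudocount of 0.1, and 6 without z-scores, and 21 passed by p alone, against 11 by the unequal-variance test and 11 with the replicate number as a block. Against the other subclones, 1 passed both thresholds, against 0 with a pseudocount of 1 and 5 without z-scores, and 9 passed by p alone, against 2 by the unequal-variance test. The cause was not tested. With each library left out, counts by p ranged from 7 to 8 (WT5 and polyclonal cells), 15 to 21 (against WT5), 8 to 9 (against the other subclones) and 2 to 3 (F test), and those past both thresholds were 1 throughout. Over the 9 members other than Cftr, 17 calls by p against WT5 became 8 by the unequal-variance test, 9 with the replicate block and 12 to 18 with each library left out, 0 passed both thresholds except 5 without z-scores, and of 4 calls against the other subclones 1 was kept by the unequal-variance test and 3 to 4 with each library left out. Deviations of same-numbered libraries had r of -0.0457 to 0.0637 in the comparisons of subclones with WT5. Between subclones, r was -0.265 to 0.129 for same-numbered libraries and -0.171 to 0.248 for libraries of different number. Same-numbered libraries were thus no more alike than others, and the replicate block was not taken as pairing.

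Of 1472 values of single members under the alternatives, 1343 kept direction and call, 99 lost the call, 21 gained it and 9 changed sign, none of which passed a test. The sign changed for Slc12a2 between WT5 and polyclonal cells (0.0026 with every gene above 0 anywhere kept, 0.02997 without z-scores), for Clcn3 in subclone 2 against WT5 (-0.00011 and -0.071 in the same settings, and -0.00635 to 0.0104 with each library left out, below 0 without WT5 replicate 1 or 2 or subclone 2 replicate 1), for Clcn2 in subclone 5 against WT5 without its replicate 2 (-0.0237 to 0.0469 with each library left out), and for Clcn5 in subclone 5 against WT5 without its replicate 1 (-0.0291 to 0.0150). Without reads per gene, the precision of the lowest values, such as Cftr in subclone 4, is not known.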
